A study of Arabidopsis thaliana with 18 samples.

Results

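Non-polysomal RNA of the gcn2 mutant was compared with total RNA of the same mutant, to find which transcripts are over- or under-represented in the ribosome-poor top of a sucrose gradient. The comparison used 6 of the 18 arrays, chosen by their titles: 3 of gcn2 non-polysomal RNA and 3 of gcn2 total RNA. All samples were aerial parts of seedlings of Arabidopsis thaliana, line Landsberg erecta, either wild type or gcn2, aged 10 days and frozen 4 h after the lights came on. The plants grew at 22 °C under 16 h of fluorescent light a day (80 µmol per square metre per second), and their agar medium (0.8%) contained sucrose at 1%. Non-polysomal RNA was the pool of the 6 top gradient fractions, polysomal RNA the pool of the 6 bottom fractions, and total RNA was not fractionated. The wild-type arrays (3 non-polysomal, 3 total) and the 3 gcn2 polysomal arrays served for context, and no treatment differed between groups.

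Transcripts that carry several ribosomes sediment to the bottom of such a gradient. The top holds free messenger ribonucleoproteins, ribosomal subunits and single ribosomes, so messages that are stored, weakly initiated or too short to carry many ribosomes collect there. GCN2 is a protein kinase activated by uncharged transfer RNA, and its best known action is to lower the rate of translation initiation under amino acid starvation and other stresses. The gcn2 allele is named in the labels by gene only. No probe set was assigned to GCN2 in the annotation used, so the mutant label was not checked by its target.

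Each probe set on the array reports a log2 signal, and the values below are log2 signals as deposited or differences between them, written as non-polysomal minus total. A difference of 1 is a 2-fold ratio. The arrays share a common scale, with medians between 5.05 and 5.18, so a difference is relative to the level of the whole array and says nothing of the amount of RNA in a fraction. Arrays of gcn2 non-polysomal RNA correlated with each other at 0.974 to 0.985 and those of gcn2 total RNA at 0.991 to 0.994. Green tissue markers were bright in gcn2 total RNA, with RCA (Rubisco activase) at 13.9, PSAE-1 at 12.9 and PSAN at 12.4, both subunits of photosystem I. Of 3 measured root markers the expansin EXPA7 lay at 3.57, close to the arrays' lower quartiles of 3.21 to 3.52. The expansin EXPA18 lay at 4.33, between those quartiles and the medians, and PYK10 lay at 11.0. The single measured flower and pollen marker, AT5G45880, was at 3.08, and no seed marker was measured.

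In gcn2, 8297 of 22746 probe sets (36.5%) differed between non-polysomal and total RNA at an adjusted p of at most 0.05 (limma, Benjamini-Hochberg). Of these, 4038 were higher in non-polysomal RNA, which is 17.8% of all probe sets tested, and 4259 were lower, which is 18.7%. Differences of at least 2-fold were fewer among the higher, with 1040 probe sets (4.57%), than among the lower, with 1741 (7.65%). In 7983 of the 8297 the 3 non-polysomal arrays and the 3 total arrays did not overlap. A small adjusted p favours such separation and the share over all probe sets was not counted, so this count adds no support. The median difference over all probe sets was 0.08. The labels do not say whether replicates came from separate cultures, so p-values reflect only how far these samples spread, which may be technical. In bulk samples such as these, fewer cells of a type and less RNA per cell cannot be told apart.

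The split between higher and lower depends on the scale. The spiked BioB and BioC controls lay at 10.2 ± 0.21 (SD, n = 3) on gcn2 non-polysomal arrays and at 8.97 ± 0.32 on gcn2 total arrays, a difference of 1.19 with no overlap (exact permutation test, two-sided, p = 0.1, the smallest that 3 against 3 arrays can give). Centring each array on these controls moved the median of all probe sets from 0.08 to -1.10 and left 136 higher and 19651 lower. All directions below are therefore relative to the array-wide level, and every difference under about 1.19 that is positive there is negative on the spike scale. A second control measure also separated the groups. The 3′ minus 5′ signal of the actin, GAPDH and ubiquitin control probe sets was 4.19, 3.60 and 3.39 in gcn2 non-polysomal RNA and 2.25, 2.25 and 2.16 in total RNA, a difference of 1.5 (exact permutation p = 0.1). In wild type the same difference was 0.97. The part of this gap between transcript ends in the differences below was not tested.

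The balance of calls changed with signal. Probe sets were split by mean signal into 5 equal groups. In the dimmest group 8.22% were higher and 0.505% lower in non-polysomal RNA, with a median difference of 0.13. In the middle group the shares were 21.5% and 17.5%, and in the brightest group 21.9% and 41.7%, with a median of -0.26. Bright transcripts were thus more often lower than higher, and dim ones the reverse. The values also spread less on the non-polysomal arrays, whose SD over probe sets was 2.03, 2.13 and 2.04 against 2.21, 2.19 and 2.18 on the total arrays.

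**Figure D1:**
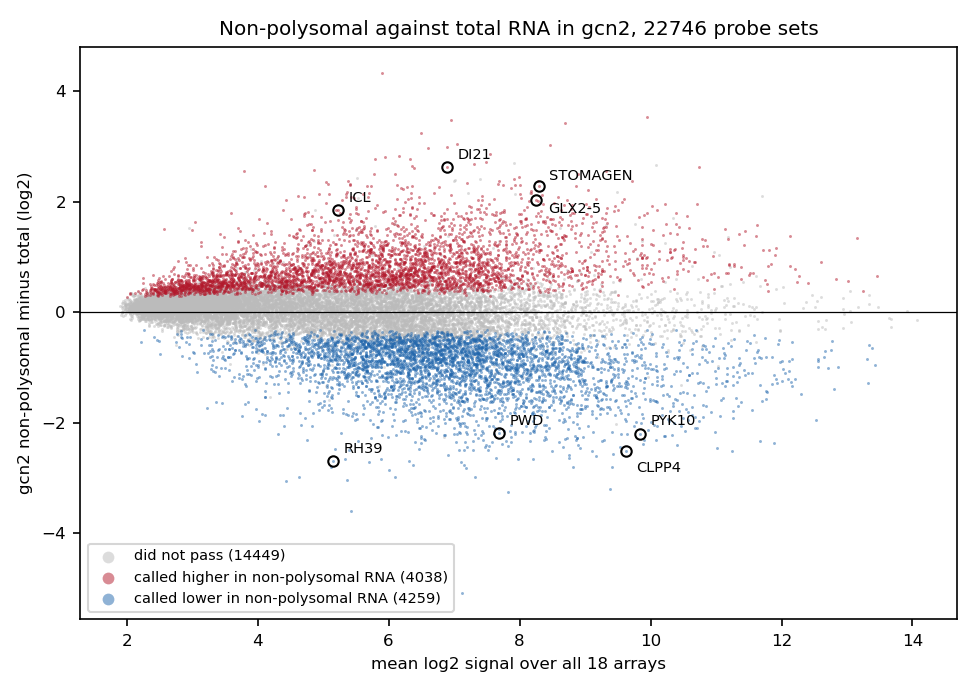
Difference between gcn2 non-polysomal and total RNA (log2, y axis) against mean log2 signal over 18 arrays (x axis), 1 point per probe set, relative to the array-wide level. Red points were called higher (4038), blue points lower (4259), grey points did not pass, and circles mark 8 transcripts described in the text. Blue points thicken to the right and the dimmest probe sets hold few of them.

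Over all 13355 loci, 2559 were higher and 1879 lower, and among those with a gene symbol 257 were higher and 402 lower of 1658. Of the 9233 probe sets that had several genes or were unlisted, 1464 were higher and 2341 lower. The gene lists below were drawn from the loci. The shares of all probe sets printed beside them also cover these 9233, where lower calls were the more frequent. Plastid and mitochondrial genes are described apart, below. Among the other loci, the 12 largest differences per direction were taken from those past the threshold whose groups did not overlap, that differed at least 2-fold and whose brighter group was at or above that group's median. These criteria were met by 638 loci in the higher direction, 61 of them with a symbol, and by 629 in the lower direction, 155 with a symbol. Lack of overlap in the 12 transcripts per direction was thus a condition of their choice and is no further evidence.

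The largest increase of a nuclear transcript with a symbol belonged to DI21 (AT4G15910), a transcript named for its induction by drought. It read 9.18, 9.15 and 8.32 in gcn2 non-polysomal RNA and 6.06, 6.19 and 6.50 in total RNA. All non-polysomal arrays lay above all total arrays, and the difference of 2.63 ± 0.31 (SE, adjusted p = 2.36e-06) is a 6.20-fold ratio. In polysomal RNA DI21 was at 5.64 ± 0.35 (SD, n = 3), a difference from the same total arrays of -0.61 that did not pass (adjusted p = 0.191).

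Of the 12, 3 encode small secreted peptides. STOMAGEN (AT4G12970), a secreted peptide that promotes the formation of stomata, read 10.02, 9.77 and 9.24 in non-polysomal and 7.32, 7.47 and 7.39 in total RNA. The groups were far apart, with a difference of 2.28 ± 0.19 (adjusted p = 6.36e-08), and its polysomal difference from total was 0.56 (adjusted p = 0.0466). RALFL32 (AT4G14010), a peptide of the rapid alkalinization factor family, read 8.86, 8.77 and 8.37 against 6.74, 6.50 and 6.89, a difference of 1.96 ± 0.24. CLE41 (AT3G24770), the precursor of a peptide that restrains xylem differentiation, read 9.01, 9.08 and 8.04 against 6.93, 6.98 and 6.90, a difference of 1.77 ± 0.22. Replicate 3 was the lowest non-polysomal array for all 3 peptides and still lay above every total array.

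GLX2-5, ICL and CUTA encode metabolic or organellar proteins. GLX2-5 (AT2G31350), a mitochondrial glyoxalase, read 9.39, 9.63 and 9.76 in non-polysomal and 7.65, 7.48 and 7.56 in total RNA, a difference of 2.03 ± 0.23. ICL (AT3G21720), the isocitrate lyase of the glyoxylate cycle that turns seed oil into sugar, read 7.67, 7.38 and 6.52 against 4.66, 5.70 and 5.67. Its groups did not overlap but each spread by about 1 unit, and the difference was 1.84 ± 0.33 (adjusted p = 2.09e-04). CUTA (AT2G33740), a copper-binding protein of the chloroplast, read 9.68, 9.83 and 9.50 against 7.84, 7.68 and 7.57, a difference of 1.97 ± 0.17.

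The remaining 5 of the 12 act in regulation or stress, as far as their roles are known. SIS (AT5G02020), a salt-induced serine-rich protein, was higher by 1.97 ± 0.29, at 7.58 ± 0.19 in non-polysomal RNA (SD, n = 3). SAMBA (AT1G32310), a plant regulator of the anaphase-promoting complex, was higher by 1.84 ± 0.21. Its polysomal difference from total was also positive, at 0.87 (adjusted p = 0.00725). SGP1 (AT5G54840), a small GTP-binding protein, was higher by 1.75 ± 0.20 and LSM3B (AT1G76860), part of the ring complexes that act in splicing and messenger RNA decay, by 1.67 ± 0.19. BZIP53 (AT3G62420), a transcription factor whose message carries a conserved upstream open reading frame, read 9.43, 9.54 and 8.93 against 7.66, 7.79 and 7.46, a difference of 1.66 ± 0.20. The adjusted p of the 12 ran from 6.36e-08 for STOMAGEN to 2.09e-04 for ICL. On the spike scale ICL, SAMBA, CLE41, SGP1, LSM3B and BZIP53 stayed positive but no longer passed, with differences of 0.48 to 0.66.

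**Figure D2:**
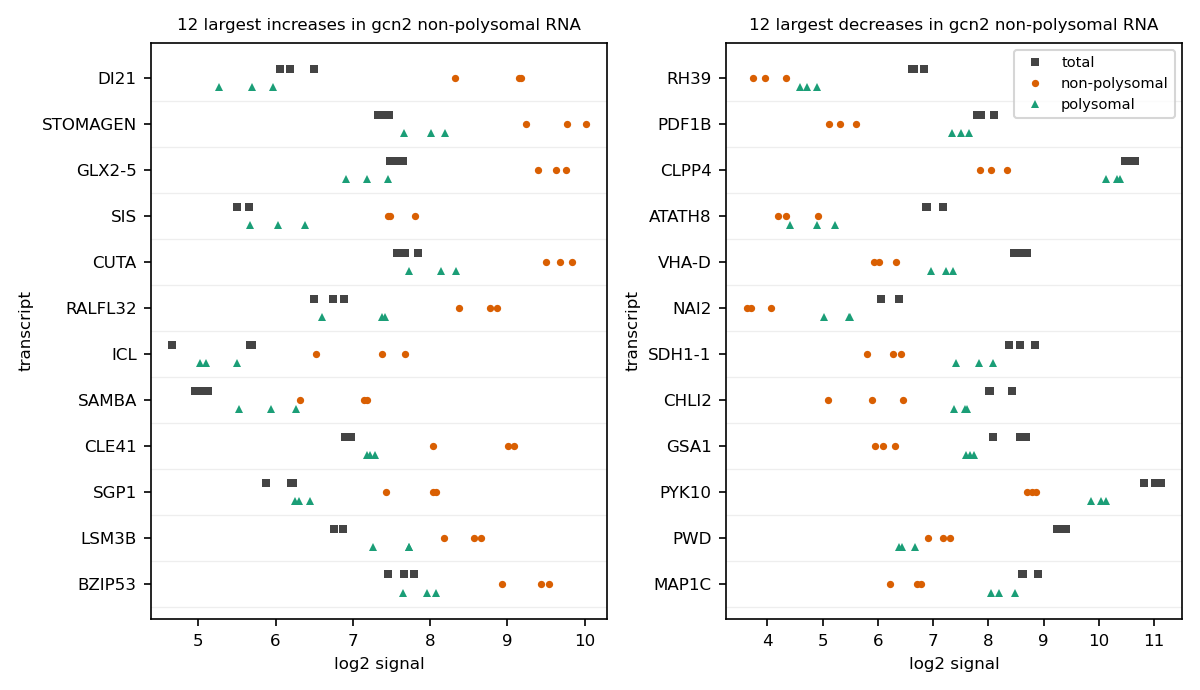
Log2 signal (x axis) of the 12 largest increases (left) and 12 largest decreases (right) of nuclear transcripts with a gene symbol in gcn2 non-polysomal RNA against total RNA, each point 1 array. Circles are non-polysomal, squares total and triangles polysomal arrays. Circles and squares do not overlap in any of the 24 rows because transcripts were chosen on that condition. For PWD the polysomal arrays lie lowest.

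The largest decreases of nuclear transcripts with a symbol included several for proteins that work in the chloroplast. RH39 (AT4G09730), an RNA helicase that processes plastid ribosomal RNA, read 3.74, 3.96 and 4.33 in gcn2 non-polysomal RNA and 6.62, 6.84 and 6.65 in total RNA. The difference of -2.69 ± 0.21 (adjusted p = 3.08e-08) is a 6.47-fold ratio, without overlap. PDF1B (AT5G14660), the peptide deformylase that trims new plastid proteins, read 5.12, 5.31 and 5.60 against 7.86, 7.79 and 8.11, a difference of -2.58 ± 0.17. CLPP4 (AT5G45390), a subunit of the chloroplast Clp protease, read 8.05, 8.33 and 7.85 against 10.48, 10.66 and 10.62, a difference of -2.51 ± 0.22. MAP1C (AT1G13270), an organellar methionine aminopeptidase that acts after the deformylase, was lower by a difference of -2.14 ± 0.24.

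CHLI2 and GSA1 belong to chlorophyll synthesis. GSA1 (AT5G63570), the aminotransferase that makes the common precursor of chlorophyll and haem, read 5.95, 6.31 and 6.10 in non-polysomal and 8.08, 8.68 and 8.57 in total RNA, a difference of -2.32 ± 0.18. CHLI2 (AT5G45930), a subunit of magnesium chelatase, read 6.46, 5.89 and 5.10 against 8.03, 8.01 and 8.43, a difference of -2.34 ± 0.29. Its non-polysomal arrays spread over more than 1 unit but all lay below the total arrays.

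NAI2 and PYK10 are both proteins of ER bodies, the beta-glucosidase stores of seedlings. PYK10 (AT3G09260), the glucosidase itself and also a root marker, read 8.79, 8.87 and 8.70 against 11.13, 11.01 and 10.82, a difference of -2.20 ± 0.20. NAI2 (AT3G15950), which is needed to form the bodies, read 4.07, 3.71 and 3.63 against 6.39, 6.39 and 6.06, a difference of -2.47 ± 0.18. Of the other root markers EXPA18 differed by -0.23 (adjusted p = 0.247) and EXPA7 by 0.42 (adjusted p = 0.105), so the part of root tissue in the value of PYK10 was not tested further.

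The rest of the 12 decreases were VHA-D, SDH1-1, ATATH8 and PWD. VHA-D (AT3G58730), subunit D of the vacuolar proton pump, was lower by a difference of -2.49 ± 0.17 and SDH1-1 (AT5G66760), the flavoprotein of succinate dehydrogenase, by -2.44 ± 0.21. ATATH8 (AT2G39190) had a difference of -2.50 ± 0.26. PWD (AT5G26570), the phosphoglucan water dikinase that opens starch for breakdown, read 6.91, 7.30 and 7.18 against 9.40, 9.31 and 9.25, a difference of -2.19 ± 0.13 (adjusted p = 2.69e-09). All 12 decreases passed at an adjusted p of 5.91e-06 or less.

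The same total arrays served as the reference for gcn2 polysomal RNA, so the 2 differences of a transcript share them and are set side by side. In that comparison 4355 probe sets (19.1%) were called, 8.81% of those tested higher and 10.3% lower. Of the 12 large increases, SAMBA, LSM3B and STOMAGEN were also called higher in polysomal RNA and 9 did not pass. Of the 12 large decreases, 8 were also called lower and 4 did not pass. PWD had the largest polysomal difference among them, at -2.82, followed by ATATH8 at -2.13 and RH39 at -1.97. For PDF1B, CLPP4, CHLI2 and MAP1C the polysomal differences were -0.42, -0.32, -0.63 and -0.47 and did not pass. Polysomal and non-polysomal RNA were also compared directly in gcn2, where 28.5% of probe sets were called. PWD was lower in polysomal than in non-polysomal RNA by a difference of -0.64 (adjusted p = 0.00132) and the difference of ATATH8 was 0.36 (adjusted p = 0.342). PDF1B and CLPP4 were higher in polysomal RNA by 2.16 and 2.19.

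Plastid-encoded transcripts are made inside the chloroplast and translated there by bacterial-type ribosomes, often from multi-gene transcripts. Of 69 measured, 10 were higher in gcn2 non-polysomal RNA, 4 were lower and 55 did not pass, beside 17.8% and 18.7% of all probe sets. Their median difference was 0.83, with 48 positive and 21 negative values, against 0.08 over all probe sets. They were also far less precise: the median SE was 1.06 against 0.17 for all probe sets. The median level of the 69 was 7.37, 10.1 and 11.1 on the 3 non-polysomal arrays and 8.80, 7.69 and 10.0 on the 3 total arrays. Plastid levels thus moved by several units between arrays of the same group, and the groups overlapped. Replicate 3 was the highest in both groups, while replicates 1 and 2 ran in opposite orders. The main fit left the replicate number out, so such shifts counted in these errors. With the replicate number fitted as a block, 30 plastid genes were higher and 9 lower.

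Of the 10 higher calls, 7 encode small subunits of photosystem I, photosystem II or the cytochrome complex. psbI and psbK, neighbours that encode small proteins of photosystem II, were higher by 3.54 ± 0.75 (adjusted p = 0.00109) and 2.51 ± 0.93 (adjusted p = 0.0424). psbI read 10.19, 11.72 and 11.30 in non-polysomal and 6.99, 6.70 and 8.90 in total RNA, without overlap. Unlike most plastid transcripts, these 2 were also higher in polysomal RNA, by 3.18 and 2.79.

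Of the cytochrome complex, 3 of 6 measured genes were higher, all small subunits: petG by 4.33 ± 1.46 (adjusted p = 0.0266), petN by 3.48 ± 1.16 (adjusted p = 0.0251) and petL by 2.37 ± 0.82 (adjusted p = 0.0298). petG read 5.72, 8.97 and 10.00 against 2.70, 2.44 and 6.56, so that the lowest non-polysomal array lay below the highest total array. psaC, the iron-sulphur subunit of photosystem I, was higher by 3.43 ± 1.06 and rpl32, of the large ribosomal subunit, by 1.93 ± 0.55. Among the 10, the smallest errors belonged to psbM and ndhC: psbM (photosystem II) read 14.07, 14.12 and 13.98 against 12.90, 12.47 and 12.78, a difference of 1.34 ± 0.28. ndhC, of the NDH complex, read 12.06, 12.28 and 12.07 against 11.50, 11.42 and 11.34, a difference of 0.72 ± 0.16. The tenth was rps18, at 1.08 ± 0.37.

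The lower calls were psaA, rpl22, ndhH and atpB. psaA, a core protein of photosystem I, read 4.50, 4.95 and 5.71 in non-polysomal and 10.18, 8.81 and 11.43 in total RNA, a difference of -5.08 ± 0.89 (adjusted p = 1.88e-04). It was also lower in polysomal RNA, with a difference of -3.70 (adjusted p = 0.00674), while its neighbour psaB, the other core protein, had a difference of -0.31 (adjusted p = 0.729). rpl22 had a difference of -3.20 ± 0.85, ndhH of -2.27 ± 0.80 and atpB, the beta subunit of ATP synthase, of -1.0 ± 0.35. rpl22 lies in a run of ribosomal protein genes, and the run from rpl36 through rpl14, rpl16, rps3 and rpl22 to rps19 was negative throughout, at -2.03, -1.05, -0.01, -1.31, -3.20 and -0.61, with rpl22 alone passing. ndhA, beside ndhH, had a difference of -1.17 (adjusted p = 0.0771).

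In the main fit, without the replicate number, the plastid counts rested on single arrays. Without gcn2 non-polysomal replicate 2 or replicate 3 there were 4 higher calls, without gcn2 total replicate 1 there were 6 and without gcn2 total replicate 2 there were 3. The lower calls numbered 2 without non-polysomal replicate 1, total replicate 2 or total replicate 3, and 7 without non-polysomal replicate 3. On the spike scale 6 were higher and 22 lower.

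**Figure D3:**
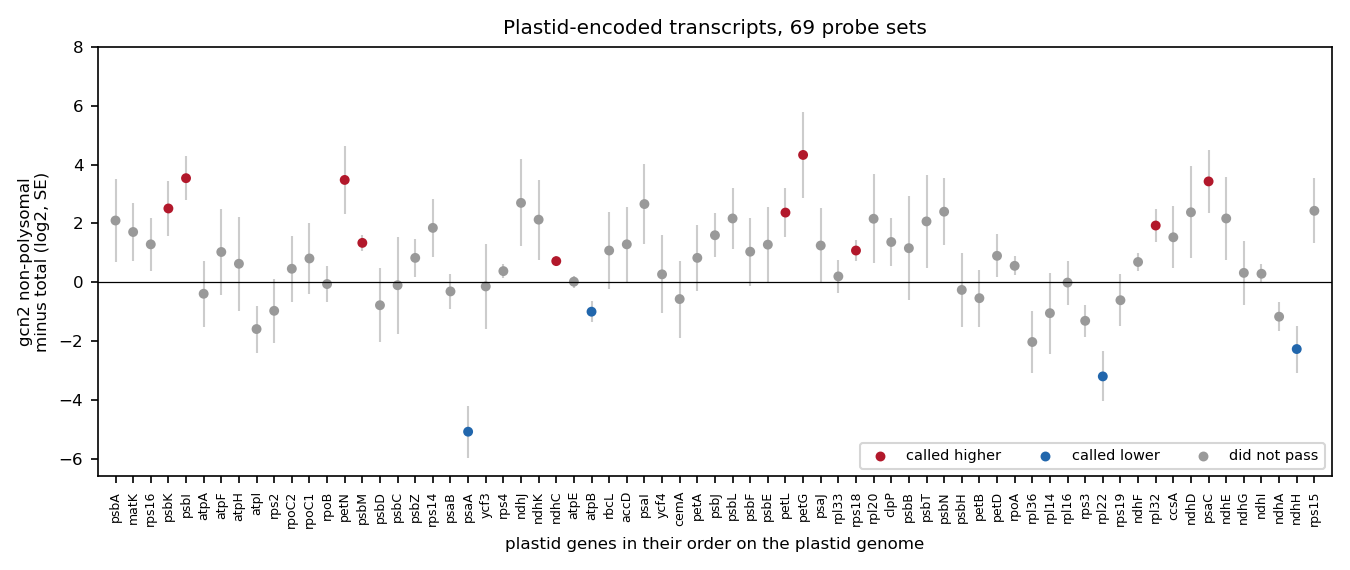
Difference between gcn2 non-polysomal and total RNA (log2, y axis) for 69 plastid-encoded transcripts in their order on the plastid genome (x axis), relative to the array-wide level. Points are estimates from 3 against 3 arrays and bars are standard errors. Red points were called higher (10), blue lower (4) and grey did not pass, and the deepest point is psaA at -5.08.

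Mitochondrion-encoded transcripts were positive in all 16 measured cases, and 4 of them were called higher and 0 lower (limma). Their median difference was 0.77 and their median total level 3.84. Of all probe sets 17.8% were called higher and 18.7% lower. Among those with mean signals of 3.13 to 4.4, the shares were 15.8% and 5.08%. The share of positive values over all probe sets was not counted. cox2, a subunit of cytochrome c oxidase, read 4.73, 4.57 and 5.26 in non-polysomal and 3.75, 3.74 and 4.24 in total RNA, a difference of 0.94 ± 0.18 (adjusted p = 4.84e-04). nad1, of respiratory complex I, read 4.45, 5.13 and 5.23 against 3.62, 3.64 and 4.07, a difference of 1.16 ± 0.26. cox1, the catalytic subunit of cytochrome c oxidase, read 6.69, 8.25 and 10.34 against 4.99, 5.14 and 6.22, and its difference of 2.98 ± 1.05 passed at 0.0325. nad6 was higher by 0.81 ± 0.29 (adjusted p = 0.0344), on a probe set of the kind that can match more than 1 sequence.

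In polysomal RNA the mitochondrial median difference from total was -0.05, and that of the plastid list was -0.67. The mitochondrial calls fell to 2 without non-polysomal replicate 3, total replicate 1 or total replicate 2. cox1 lost its call in those cases and without non-polysomal replicate 2, with adjusted p between 0.0591 and 0.176. On the spike scale cox2, nad1 and nad6 turned to -0.24, -0.02 and -0.37.

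Nuclear gene lists were drawn by words in symbols and synonyms or by locus, and most hold only part of what they name. Where a list below had 0 calls in a direction, its count at an unadjusted p under 0.05 in that direction was also 0, except for 1 cell wall enzyme, 1 RNA-binding locus and 1 non-coding RNA, all positive. Of 29 loci for secreted cysteine-rich and signalling peptides, 8 were higher and 0 lower (limma), with a median difference of 0.20. Of all probe sets 17.8% were called higher and 18.7% lower. Beside RALFL32 and CLE41, PDF1.2b, a defensin, was higher by 1.49, on a probe set of the kind that can match more than 1 sequence. PDF1.2, on another probe set, differed by 0.20 (adjusted p = 0.712). CLE44, which encodes the same peptide as CLE41, was higher by 1.38 and CLE27, a CLE peptide, by 1.23. RALFL24, CLE26 and RALFL27 were higher by 0.86, 0.85 and 0.39. CLE44 read 5.91, 5.44 and 5.11 in non-polysomal and 4.31, 4.07 and 3.94 in total RNA, without overlap. Many members were dim, and the median total level of the list was 3.42.

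Transcription factors in the list were basic helix-loop-helix, bZIP and WRKY proteins, with MYBC1 as a further member. Of 27, 6 (22.2%) were higher and 0 lower in gcn2 non-polysomal RNA, beside 17.8% and 18.7% of all probe sets, with a median difference of 0.21. bHLH104 (AT4G14410), which acts in iron homeostasis, read 8.53, 8.49 and 8.56 against 7.51, 7.40 and 7.40, a difference of 1.09 ± 0.11 (adjusted p = 6.93e-07). bHLH34 and bHLH115, of the same subgroup of iron regulators, were higher by 0.72 ± 0.14 and 0.66 ± 0.16. The other 3 were bZIP44 at 0.91, WRKY22, a defence regulator, at 0.64, and bHLH121, also of iron homeostasis, at 0.44. In polysomal RNA bHLH104, bHLH34, bHLH115 and bZIP44 were also higher than in total RNA, by 0.64, 0.59, 0.84 and 0.66. On the spike scale bHLH104, bHLH34, bHLH115 and bZIP44 turned negative.

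Ubiquitin-conjugating enzymes pass ubiquitin from the activating enzyme to the ligases. Of 13 measured, 6 were higher and 0 lower, beside 17.8% and 18.7% of all probe sets, with a median difference of 0.33. UBC28 (AT1G64230) read 10.09, 10.46 and 10.39 in non-polysomal and 8.93, 8.84 and 9.03 in total RNA, a difference of 1.38 ± 0.20. UBC16 was higher by 1.03, UBC18 by 0.91, UBC20 by 0.55, UBC22 by 0.50 and PEX4, the peroxisomal enzyme, by 0.44. In polysomal RNA 8 of the 13 were higher, beside 8.81% of all probe sets in that comparison, and the median difference from the same total arrays was 0.68. On the spike scale 0 were higher and 9 lower.

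Of 35 cell wall loci, 0 were higher, 9 were lower and 26 did not pass (limma), with a median difference of -0.07. Of all probe sets 17.8% were called higher and 18.7% lower. EXPA4, an expansin that loosens the wall, read 4.79, 5.79 and 5.94 in non-polysomal and 7.11, 6.93 and 7.06 in total RNA, a difference of -1.52 ± 0.27. The expansins EXPA15, EXPB3 and the expansin-like EXLB1 had differences of -1.10, -1.07 and -0.85. The xyloglucan enzymes XTH16 and XTH32 had -1.23 and -0.87, the pectin methylesterases ATPMEPCRB and PMEPCRF -1.22 and -0.61, and XEG113, which adds arabinose to extensin, -1.06. Without non-polysomal replicate 2, 3 members were called higher.

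Of 5 photosystem and light-harvesting loci of the nucleus, 0 were higher and 3 lower. Beside them, 18.7% of all probe sets and 41.7% of the brightest group were called lower, and 17.8% and 21.9% higher. PSBY, a small protein of photosystem II, read 10.97, 10.97 and 10.62 against 12.23, 12.34 and 12.34, a difference of -1.45 ± 0.15 (adjusted p = 5.00e-07). LHCB4.3 and LHCB4.2, minor antenna proteins, had -1.71 ± 0.26 and -0.62 ± 0.19, and LHCB4.1 had -0.29 (adjusted p = 0.176). LHCB4.2 lost its call without replicate 1 or 2 of either group, at adjusted p of 0.0552 to 0.0923. It also lost it under quantile normalization, at -0.38 (adjusted p = 0.174), where the list's higher calls were no longer 0. The green leaf marker list, which shares LHCB4.2, held 3 lower of 4 measured. RCA had the largest difference of that list, at -1.29 ± 0.16, from 14.11, 13.85 and 13.80 in total RNA to 12.26, 12.69 and 12.96 in non-polysomal RNA.

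Of the 4 measured subunits of succinate dehydrogenase, SDH2-1 and SDH2-2, iron-sulphur proteins, were lower beside SDH1-1, with differences of -0.98 ± 0.15 and -0.50 ± 0.14. SDH1-2, a second flavoprotein gene with a total level of 2.75, had -0.23 (adjusted p = 0.258). Among 5 late embryogenesis abundant proteins and dehydrins, LEA26 and AtHIRD11 were lower, with differences of -1.57 ± 0.15 and -0.83 ± 0.20, and 0 were higher. Beside both lists, 18.7% of all probe sets and 41.7% of the brightest group were called lower, and 17.8% of all probe sets higher. AtHIRD11, a small dehydrin, differed from total in the other direction in polysomal RNA, at 1.13 (adjusted p = 8.22e-04).

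Conserved upstream open reading frames let metabolites such as sucrose and polyamines lower translation of the main frame. Of 7 measured loci with such frames, 3 were higher and 1 lower in gcn2 non-polysomal RNA, beside 17.8% and 18.7% of all probe sets, with a median difference of 0.48. The higher were BZIP53, bZIP44 and AT5G15950, which encodes an S-adenosylmethionine decarboxylase of polyamine synthesis and read 8.89, 9.21 and 8.93 against 8.40, 8.58 and 8.57. The lower was PMEAMT, a methyltransferase of phosphocholine synthesis, with a difference of -0.99 ± 0.20. SAMDC, another decarboxylase of this kind at 11.25 in total RNA, had a difference of 0.11 (adjusted p = 0.702). On the spike scale 0 were higher and 5 lower.

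The ATG8 proteins coat the growing autophagosome. Of 9 measured genes, 2 (22.2%) were higher in gcn2 non-polysomal RNA, near the 17.8% of all probe sets: APG8H (AT3G15580) by 1.03 ± 0.18 and ATG8G by 0.51 ± 0.18 (adjusted p = 0.0297). APG8H read 9.58, 9.72 and 9.50 in non-polysomal and 8.80, 8.55 and 8.38 in total RNA, without overlap. In polysomal RNA all 9 were called higher than on the same total arrays, beside 8.81% of all probe sets in that comparison. The median difference of the 9 was 0.97 there, against 0.18 in non-polysomal RNA. ATG8G lost its call without replicate 1 or 2 of either group, at adjusted p of 0.0657 to 0.0867, and on the spike scale 0 of the 9 were higher.

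Cytochrome P450 enzymes were mostly of the CYP71B subfamily. Of 18, CYP71B34 and CYP71B37 were higher, by 0.41 and 0.37, and 0 lower. The higher share of 11.1% is below the 17.8% of all probe sets, but the list was dim, with a median total level of 3.13. In the dimmest group of probe sets 8.22% were higher and 0.505% lower, and in the next dimmest 15.8% and 5.08%. Of 10 loci matched as membrane transporters, 1 was higher and 3 were lower, beside 17.8% and 18.7% of all probe sets. TMT1, a sugar carrier of the vacuole, AQI, named as an aquaporin interactor rather than a transporter, and SAMTL were lower, with -1.37, -1.03 and -0.80. PUP15, a purine permease, was higher by 0.51 at the threshold itself (adjusted p = 0.05). Its call was lost without non-polysomal replicate 1 or 3 or total replicate 1 or 3. The P450 higher calls numbered 1 without non-polysomal replicate 1, non-polysomal replicate 2 or total replicate 1, and 0 without total replicate 2 or 3.

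Pseudogenes and transposable element genes were the largest list. Of 989, 78 (7.89%) were higher and 1 (0.101%) lower, with a median difference of 0.14 and a median total level of 2.61, below the lower quartile of every array. Their calls were thus fewer than the 17.8% over all probe sets and close to the 8.22% of the dimmest group of probe sets. The higher count was 50 without non-polysomal replicate 1, 135 without non-polysomal replicate 2, 36 without total replicate 1 and 44 without total replicate 2. Of the lists with 1 measured locus, STZ, a zinc finger repressor, was higher by 0.96 and PPR336, a pentatricopeptide protein, had -1.12. The 2 histone, 4 non-coding RNA and 3 RNA-binding loci, the heat shock gene ATHSP22.0 and the clock gene GI did not pass.

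**Figure D4:**
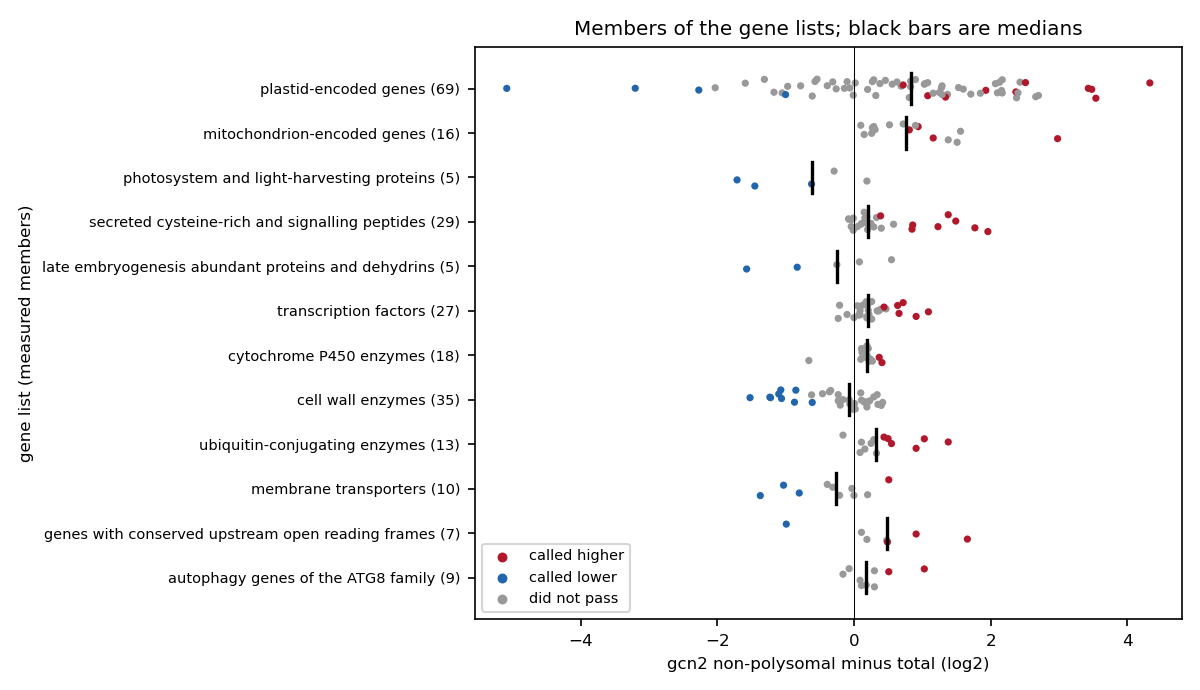
Difference between gcn2 non-polysomal and total RNA (log2, x axis) for the members of 12 gene lists (rows, number measured in parentheses), relative to the array-wide level. Each point is 1 locus, red called higher, blue called lower, grey not passing, and black bars are list medians. Peptide, transcription factor and ubiquitin lists hold red points and no blue ones, and the cell wall list blue points and no red ones.

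The same contrast was fitted in wild type. There 8973 probe sets (39.4%) were called, 4485 higher and 4488 lower (19.7% each), with a median difference of 0.09. No array is shared between the genotypes. Across the 22746 probe sets the gcn2 and wild-type differences correlated at Pearson's r = 0.908 and Spearman's rho = 0.848, a correlation across probe sets, which are not independent replicates. Of the probe sets called, 6460 were called in both genotypes in the same direction and 1 in opposite directions. The 6460 are 77.9% of the gcn2 calls and 72.0% of the wild-type calls.

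The difference between the genotypes was tested as an interaction. It called 0 of 22746 probe sets (limma, smallest adjusted p = 0.387), with 1432 at an unadjusted p under 0.05 where 1137.3 would fall by chance. Of the 24 named transcripts, 23 were also called in wild type in the same direction. The exception was ICL, with a wild-type difference of 0.24 (adjusted p = 0.595) beside 1.84 in gcn2. Its wild-type arrays read 5.13, 4.63 and 4.78 in non-polysomal and 4.06, 4.51 and 5.27 in total RNA. The gcn2 non-polysomal arrays were thus the only ones of these 4 groups above 6, but the interaction of 1.61 did not pass (adjusted p = 0.737).

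The smallest interaction p-value among loci with a symbol was that of OTP84 (AT3G57430), a pentatricopeptide protein that edits plastid RNA. Its difference was -0.55 in gcn2 and -1.44 in wild type, an interaction of 0.89 ± 0.17 (adjusted p = 0.610). TOPII, a DNA topoisomerase, had -0.53 and -1.19. AKINBETA1 (AT5G21170), a regulatory subunit of the SnRK1 energy-sensing kinase, had -0.15 in gcn2 and 1.13 in wild type, an interaction of -1.28 ± 0.38 (adjusted p = 0.737). Wild-type total replicate 2 read 7.60 for AKINBETA1 against 6.58 and 6.13 in the other two. Without that array 11 probe sets passed, 5 higher and 6 lower, with AKINBETA1 at -1.70 (adjusted p = 0.0308).

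**Figure D5:**
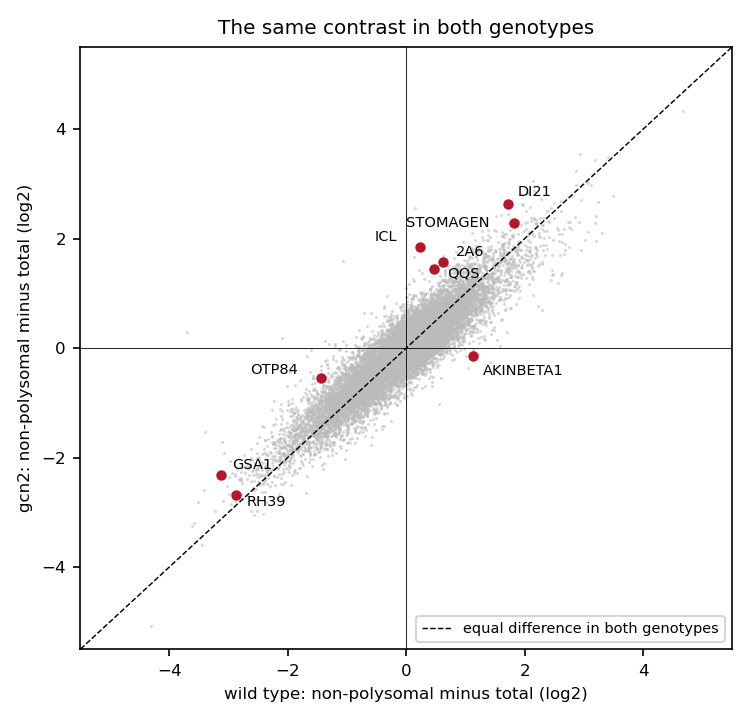
Non-polysomal minus total difference (log2) in gcn2 (y axis) against wild type (x axis), 1 grey point per probe set, relative to the array-wide level. The dashed line marks equal differences and red points are 9 transcripts named in the text. The cloud follows the line, ICL lies above it and AKINBETA1 below it, and no difference between genotypes passed the test on all arrays.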

How the data were processed

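Biotin-labelled RNA from 18 samples was hybridized to Affymetrix ATH1 arrays. The deposited table holds log2 values per probe set, made by the authors before deposit. The submitters' processing notes list MAS5, RMA and affy without role or version, so how probe sets were summarized is not given in the sources used here. Values ran from 1.68 to 14.3, and 0 of 153 array pairs were identical. Groups and replicate numbers came from the sample titles.

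Of 22810 probe sets, 64 controls were left out and 22746 tested. The platform annotation gave 13513 of these 1 gene, 503 several, and left 8730 unlisted and unnamed here. By gene number 13436 matched a RefSeq table of TAIR10.1, used for names and neighbour order only. The probe set with the highest mean over 18 arrays stood for each of 13355 loci. Of 147 loci with several probe sets, 8 had calls in both directions.

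Contrasts were fitted in limma 3.58.1 under R 4.3.3 with a group-means model of 18 arrays and 6 groups, moderated by empirical Bayes on 12 residual degrees of freedom, with p-values adjusted over all probe sets by Benjamini-Hochberg at 0.05. Errors of differences are moderated standard errors. The number of arrays limits the precision. The code was tested on simulated data.

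Members and lists were chosen with earlier results of these data known. The list patterns "thionin" and "AP2" matched unrelated names and were corrected. Named transcripts were the 12 largest differences per direction among nuclear loci that met the criteria given above, with plastid and mitochondrial genes taken under their lists, up to 4 members of each list by moderated statistic, and the 5 smallest interaction p-values per direction. Other list members are named to account for each call. Same-numbered gcn2 non-polysomal and total arrays deviated together at -0.151, -0.157 and 0.284 over all probe sets. These values do not settle whether the numbers pair the arrays, because organelle transcripts may differ from the rest. Plastid medians were highest on replicate 3 of both groups, and replicates 1 and 2 ran in opposite orders. An effect of the replicate number on organelle transcripts was not tested apart. The main fit left the replicate number out, and with it as a block 30 plastid genes were higher and 9 lower. Same-numbered arrays correlated above 0.1 in all 3 pairs between gcn2 and wild-type non-polysomal RNA (0.278 to 0.443), gcn2 non-polysomal and wild-type total RNA (0.244 to 0.277) and wild-type non-polysomal and total RNA (0.177 to 0.243). Alternatives were quantile normalization, centring on BioB and BioC controls, leaving out the dimmest 40% of probe sets, fitting only the arrays compared, a trended and robust prior, array weights, a replicate block and leaving out each array.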

Additional observations from a re-analysis of the deposited data

How the results depend on the processing

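Centring on the BioB and BioC controls was the only alternative run under which a named result that had passed changed direction. It left 19787 probe sets called, 136 higher and 19651 lower. By list it gave 6 higher and 22 lower plastid genes, 1 and 7 mitochondrial genes, 1 and 21 peptides, 0 and 22 transcription factors, 0 and 18 P450 enzymes and 0 and 9 ubiquitin-conjugating enzymes. It gave 35 lower cell wall enzymes, 0 higher and 10 lower transporters, and 2 higher and 965 lower pseudogenes. Of 112 named results, 19 that had been called higher turned negative under it, as did every positive difference below the amount subtracted. The 19 were ndhC at -0.47, cox2 at -0.24, nad1 at -0.02, nad6 at -0.37, bHLH104 at -0.10, bHLH34 at -0.46, bZIP44 at -0.28, bHLH115 at -0.53 and STZ at -0.22. The others were CYP71B34 at -0.77, CYP71B37 at -0.81, UBC18 at -0.28, UBC16 at -0.15, UBC22 at -0.68, PUP15 at -0.68, AT2G10850 at -0.33, AT5G15950 at -0.69, APG8H at -0.16 and ATG8G at -0.67.

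The other alternatives gave 3056 to 4571 higher and 4006 to 4571 lower calls, where the lowest higher count tested 13647 probe sets because the dimmest 40% were left out. That filter left 2 mitochondrial genes, 1 P450 enzyme and 13 pseudogenes higher. Quantile normalization gave 1 P450 enzyme, 0 transporters and 30 pseudogenes higher and 8 pseudogenes lower. Fitting only the arrays compared gave 8 mitochondrial genes, 0 P450 enzymes, 0 transporters and 49 pseudogenes higher and 1 P450 enzyme lower. The trended and robust prior gave 5 plastid genes higher, and array weights gave 0 transporters higher and 2 pseudogenes lower. For these changes the cause was not tested.

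The replicate block gave 4571 higher and 4571 lower calls and 0 for the genotype difference. With the block 30 plastid genes were higher and 9 lower, 10 mitochondrial genes were higher and 2 pseudogenes were lower. It changed the call of 0 of 112 named results.

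Leaving out 1 array at a time gave 6884 to 8147 calls, 3180 to 4043 higher and 3704 to 4104 lower, and 0 to 11 for the genotype difference. Higher calls ranged from 3 to 13 for plastid genes, 2 to 5 for mitochondrial genes, 7 to 9 for peptides, 4 to 6 for transcription factors, 0 to 2 for P450 enzymes, 0 to 3 for cell wall enzymes, 5 to 6 for ubiquitin-conjugating enzymes, 0 to 1 for transporters and 36 to 135 for pseudogenes. Lower calls ranged from 2 to 7 for plastid genes, 8 to 9 for cell wall enzymes, 3 to 4 for transporters and 0 to 3 for pseudogenes. All 24 named nuclear transcripts kept their calls. The planned split by protein length was not run, since no protein table was used here. Dim probe sets limit the peptide, P450 and pseudogene lists, whose median total levels were 3.42, 3.13 and 2.61.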

Other observations

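Some nuclear loci without a symbol in the tables used differed by more than the named nuclear transcripts, and these were chosen after their values were seen. AT1G53030 read 8.52, 8.85 and 7.87 in non-polysomal and 5.55, 5.24 and 4.73 in total RNA, a difference of 3.24 ± 0.23 (SE, limma, adjusted p = 9.81e-09). AT3G47295 followed at 3.02 ± 0.18. Among the decreases AT5G57655 had -3.04 ± 0.26 and AT5G07030 had -2.98 ± 0.18. In wild type these 4 loci differed by 2.86, 3.07, -2.41 and -3.23.

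QQS and 2A6, also chosen after their values were seen, were called in gcn2 and not in wild type. QQS (AT3G30720), a small orphan protein that lowers starch, read 5.75, 6.40 and 6.06 in non-polysomal and 5.17, 4.03 and 4.72 in total RNA of gcn2, a difference of 1.44 ± 0.22 beside 0.47 in wild type (adjusted p = 0.101). 2A6 (AT1G03410) differed by 1.57 ± 0.27 in gcn2 and by 0.63 in wild type (adjusted p = 0.0778). The interactions did not pass, at adjusted p of 0.737 and 0.751.

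Of the pseudogenes and transposable element genes, 4 were higher by at least 2-fold in gcn2. AT5G04880 differed by 2.04 ± 0.18 in gcn2 and by 2.17 in wild type, and AT2G06390 by 2.31 ± 0.70 and 1.89. AT1G30940 differed by 1.43 and 0.66, and AT1G35612 by 1.26 and 0.11. The non-polysomal levels of the 4 lay between 4.57 and 6.45.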
